A study of Mus musculus with 9 samples.

Results

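The E2F and DP genes encode the transcription factors through which the RB pathway governs entry into S phase. All 10 genes of the family set examined here (E2f1 to E2f8, Tfdp1 and Tfdp2) were taken by symbol, and all 10 were found among the 24062 genes of the deposited table and passed the filter on low counts. Counts came from 9 RNA-seq libraries of C57BL/6 mouse embryonic fibroblasts (MEFs, the connective tissue cells that grow out when an embryo is put into culture), harvested on day 4 after lentiviral infection and labelled non-senescent in every group. The p21 group overexpressed p21 (encoded by Cdkn1a), the p16 group overexpressed p16 (encoded by Cdkn2a), and the control group carried the lentivirus labelled EV control, called the empty vector here. Each group held 3 libraries. The labels name neither the promoter of the lentivirus nor whether the libraries came from separate embryos or cultures, so the p-values measure the spread between these libraries.

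E2F proteins bind the promoters of genes for DNA replication and the cell cycle, most of them as a dimer with a DP protein. The pocket proteins RB1, RBL1 and RBL2 hold E2F in an inactive or repressing state until cyclin-dependent kinases phosphorylate them. p16 inhibits the kinases that pair with D-type cyclins, and p21 inhibits cyclin-dependent kinases more broadly, so both act upstream of E2F. E2f1, E2f2 and E2f3 are classed as activators. E2f4 and E2f5 repress together with RBL1 and RBL2, and E2f6 represses without a pocket protein, together with Polycomb group proteins. The atypical E2f7 and E2f8 bind DNA without a DP partner, repress E2F targets and are E2F targets themselves.

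With either inhibitor the transcripts of the atypical repressors fell and that of the Polycomb-linked repressor E2f6 rose. No activator passed the test in the main fit, which has no replicate block. In alternative fits E2f1 with p21 passed in 1 of 18, E2f2 with p21 in 1 and E2f2 with p16 in 2. E2f8 fell to 0.528 of the empty vector level with p21 and to 0.745 with p16, and E2f7 fell to 0.628 and 0.793. E2f6 rose 1.32-fold with p21 and 1.13-fold with p16, and the p16 rise passed in 12 of the 18 alternative fits. E2f4 and Tfdp1 fell to 0.861 and 0.887 of the empty vector level with p21, and both passed in all 18. E2f1 and E2f3, the abundant activators, differed from the empty vector by at most 1.07-fold in either comparison. E2f2, the scarce activator, stood at 0.701 of the empty vector level with p21 and 0.589 with p16, and the p16 difference passed with the replicate number as a block (edgeR adjusted p = 0.0418). In RNA from whole cultures, fewer cells that express a gene and less RNA of it per cell cannot be told apart.

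Library totals ran from 44455730 to 63152239 counts. With p21, Cdkn1a averaged 1605 ± 172 CPM, against 360.2 ± 12.8 CPM with the empty vector (SD, n = 3 each), and with p16, Cdkn2a averaged 1731 ± 179 CPM, against 37.9 ± 3.86 CPM, so the delivered genes matched the labels. CPM, counts scaled to a common library size, were computed after TMM scaling, which evens out differences in composition between libraries. Of 10 fibroblast markers all were detected, summing to between 27479 and 33723 CPM in every library. The means of single markers ran from 0.677 to 14536 CPM, so the sum rests on the abundant ones. Some macrophage and leukocyte markers were higher with p21. Of the 17 such markers in the table none was at 0 in all libraries. Of the 16 tested, 7 were higher with p21 and 0 with p16, where 19.8% and 5.8% of all genes were. Their summed level lay between 45.7 and 63.1 CPM in p21 libraries, between 35.5 and 62.9 CPM in p16 libraries and between 27.4 and 43.2 CPM in empty vector libraries. Their part in the E2F results was not tested. The replicate 3 libraries stood apart by Xist, the X-inactivation transcript, at 181 to 251 CPM, where no library of replicate 1 or 2 exceeded 6.96 CPM, and each group held 1 of them.

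**Figure D1:**
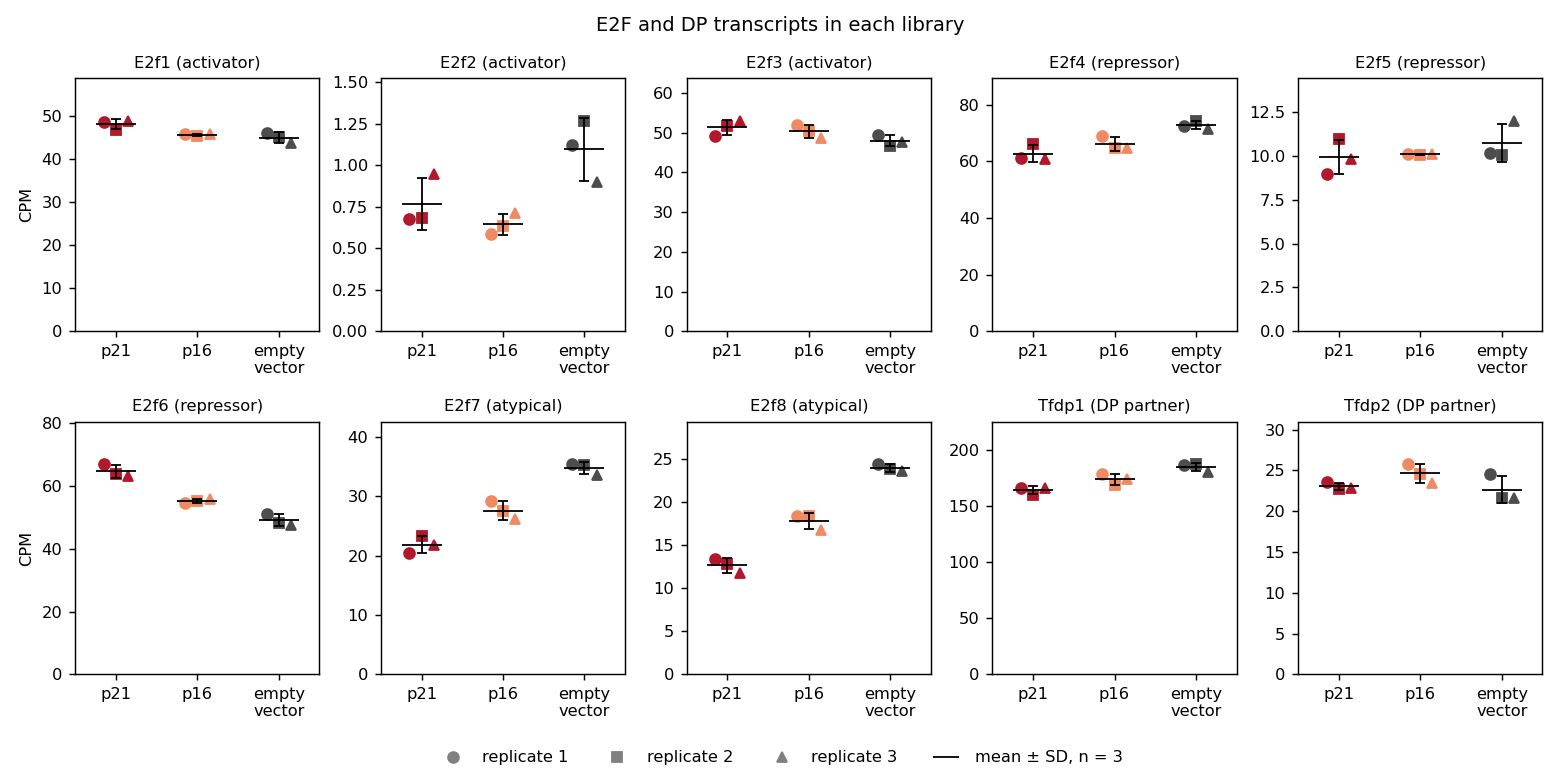
Level of each gene in CPM (vertical axes, from 0) in the 3 p21, 3 p16 and 3 empty vector libraries, with symbols for the replicate number and bars for mean ± SD (n = 3). E2f7 and E2f8 lie in 3 separate bands, lowest with p21 and highest with the empty vector, E2f6 lies in the opposite order, and E2f1 and E2f3 stay close to level.

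The atypical members were taken first. E2f8, which with E2f7 shuts down E2F targets late in the cell cycle, stood at 13.4, 12.9 and 11.7 CPM in the p21 libraries, at 18.4, 18.4 and 16.8 CPM in the p16 libraries and at 24.5, 23.8 and 23.6 CPM in the empty vector libraries. Every p21 library was below every p16 library, and every p16 library was below every empty vector library. The log2 fold change was -0.92 ± 0.063 (SE) with p21 (edgeR adjusted p = 4.985e-07) and -0.42 ± 0.062 with p16 (edgeR adjusted p = 0.00139). E2f7 stood at 20.4, 23.3 and 21.8 CPM with p21, at 29.2, 27.5 and 26.1 CPM with p16 and at 35.5, 35.3 and 33.6 CPM with the empty vector. Its 3 groups again did not overlap, in the same order. The log2 fold change was -0.67 ± 0.058 with p21 (edgeR adjusted p = 2.70e-06) and -0.33 ± 0.057 with p16 (edgeR adjusted p = 0.00348). Both genes were lower in all 3 replicate numbers in both comparisons. In the annotation 11.2% of the exon bases of E2f8 overlap a gene on the opposite strand, Gm2788, and the library kit keeps no strand, so reads from that stretch cannot be told apart by gene. Gm2788 has no row of its own in the counts.

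The windows around the start sites of E2f7 and E2f8 are shown because both genes fell together. That of E2f6 is shown as the member that rose, and that of E2f3 as an abundant activator that did not pass the test. They come from RefSeq (GRCm38.p6), which gave 12 windows for 8 of the 10 genes, each from 250 bases before to 50 bases after a start. Letters searched on both strands were TTTNGCGC, TTTGGCGC (a case of it) and TTTCCCGC. The E2F-type letters TTGGCGC and TTCCCGC, contained in these, and TTTGAA, the letters of the CHR element that the DREAM complex binds, were added after the sequences were seen. Capitals mark every match on either strand.
E2f7: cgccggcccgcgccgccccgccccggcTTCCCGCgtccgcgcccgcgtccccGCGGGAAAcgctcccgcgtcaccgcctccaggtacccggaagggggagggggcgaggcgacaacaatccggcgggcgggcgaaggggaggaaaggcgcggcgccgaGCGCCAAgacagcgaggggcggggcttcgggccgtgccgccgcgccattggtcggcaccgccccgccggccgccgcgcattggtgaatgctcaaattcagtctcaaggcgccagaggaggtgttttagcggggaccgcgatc
E2f8: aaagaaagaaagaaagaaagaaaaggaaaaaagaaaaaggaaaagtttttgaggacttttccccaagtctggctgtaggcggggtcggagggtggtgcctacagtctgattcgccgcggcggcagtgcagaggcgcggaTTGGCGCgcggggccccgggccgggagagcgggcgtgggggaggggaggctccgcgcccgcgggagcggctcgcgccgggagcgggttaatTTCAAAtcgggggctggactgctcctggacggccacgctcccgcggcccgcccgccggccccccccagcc
E2f6: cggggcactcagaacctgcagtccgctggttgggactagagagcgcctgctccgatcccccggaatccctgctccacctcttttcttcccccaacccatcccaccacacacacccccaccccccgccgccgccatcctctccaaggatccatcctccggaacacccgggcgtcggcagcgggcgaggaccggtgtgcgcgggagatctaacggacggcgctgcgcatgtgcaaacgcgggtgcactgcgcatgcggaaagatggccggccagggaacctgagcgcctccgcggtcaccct
E2f3: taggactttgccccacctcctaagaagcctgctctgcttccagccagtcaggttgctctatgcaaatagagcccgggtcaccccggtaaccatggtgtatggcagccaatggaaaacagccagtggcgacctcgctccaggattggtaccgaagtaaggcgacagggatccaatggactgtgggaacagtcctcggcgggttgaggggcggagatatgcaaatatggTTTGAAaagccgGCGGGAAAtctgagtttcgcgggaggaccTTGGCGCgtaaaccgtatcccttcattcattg
These are chr10:110745189-110745488 (plus strand), chr7:48881547-48881846 (minus strand), chr12:16810715-16811014 (plus strand) and, for the first exon farther upstream of E2f3, chr13:29986014-29986313 (minus strand).

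The E2f7 window held TTTCCCGC, which 1.07% of all 32851 promoter windows hold, on the minus strand at position -198, counting back from the start. It also held a further TTCCCGC (4.6% of windows hold these letters) and TTGGCGC (2.45%). The E2f8 window held none of the 3 longer strings, but TTGGCGC at -111 and TTTGAA, held by 17.9% of windows, at -20 on the opposite strand. The E2f3 window shown held TTTCCCGC at -11, TTTGAA and TTGGCGC, although E2f3 did not pass the test in any comparison. The other E2f3 window (chr13:29984342-29984641) held no match, and the counts do not separate transcripts by start. No searched letters were in the E2f6 window. Of the other windows, 1 of E2f2 held TTTGGCGC (0.514% of windows) and both overlapping ones of Tfdp1 held TTTNGCGC (1.38%). The E2f1 window (chr2:154569377-154569676) held no match, but the RefSeq start it is built on lies inside the GENCODE gene model (154559407 to 154569892, minus strand), so it does not cover the start of that model.

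E2f6, a repressor that works with Polycomb proteins at germline and cell cycle genes, stood at 67.1, 63.7 and 63.2 CPM with p21, at 54.5, 55.4 and 56.0 CPM with p16 and at 51.2, 48.3 and 47.7 CPM with the empty vector. The 3 groups did not overlap, with p21 highest. The log2 fold change was 0.40 ± 0.044 with p21 (edgeR adjusted p = 1.958e-05) and 0.17 ± 0.044 with p16 (edgeR adjusted p = 0.0255). The p16 call was lost without empty vector replicate 2 (edgeR adjusted p = 0.101) or 3 (0.0984), without p16 replicate 1 (0.0588), 2 (0.0863) or 3 (0.0872), and without all replicate 3 libraries (0.0936). Its log2 fold change over all alternatives ran from 0.14 to 0.20, always higher with p16.

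E2f4, the most abundant E2F per length and a partner of RBL1 and RBL2 in resting cells, went the other way. It stood at 61.1, 66.1 and 60.7 CPM with p21, at 68.8, 64.7 and 64.5 CPM with p16 and at 72.5, 74.4 and 71.4 CPM with the empty vector. Each p21 and each p16 library was below each empty vector library, while the p21 and p16 libraries overlapped. The fall with p21 was -0.22 ± 0.047 on the log2 scale (edgeR adjusted p = 0.00292). With p16 the log2 fold change of -0.14 ± 0.047 did not pass (edgeR adjusted p = 0.0758), but it passed with the replicate number as a block (edgeR adjusted p = 0.0176). E2f5, a scarcer relative of E2f4, averaged 9.94 ± 0.996 CPM with p21, 10.1 ± 0.0486 CPM with p16 and 10.8 ± 1.09 CPM with the empty vector (SD, n = 3 each). The groups overlapped and E2f5 did not pass in any comparison. Its log2 fold change was -0.12 with p21, with a 95% interval of -0.31 to 0.084. The repressor class thus held 1 gene that rose, 1 that fell and 1 that did not pass with p21.

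Among the activators, E2f1, which RB1 binds and which also drives apoptosis genes, stood at 48.5, 46.7 and 48.9 CPM with p21, at 45.8, 45.3 and 45.7 CPM with p16 and at 46.1, 45.0 and 43.6 CPM with the empty vector. All p21 libraries lay above all empty vector libraries, by little, and the p16 libraries lay within the range of the empty vector libraries. The log2 fold change of 0.097 ± 0.040 with p21 did not pass (edgeR adjusted p = 0.07485), with a 95% interval of 0.0090 to 0.18. It passed without p21 replicate 2 (edgeR adjusted p = 0.0485). With p16 the log2 fold change was 0.022, with an interval of -0.065 to 0.11.

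E2f3, whose a and b forms start from separate promoters and are summed in these counts, stood at 49.3, 51.7 and 53.1 CPM with p21, at 51.9, 50.4 and 48.7 CPM with p16 and at 49.5, 46.7 and 47.7 CPM with the empty vector. The groups overlapped. Its log2 fold change was 0.098 ± 0.045 with p21 (edgeR adjusted p = 0.1065, 95% interval -0.00099 to 0.20) and 0.070 ± 0.045 with p16 (edgeR adjusted p = 0.363, interval -0.028 to 0.17). For E2f1 and E2f3 the intervals therefore end far from the falls of E2f7 and E2f8. Whether the changes of 2 genes differ was not tested.

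E2f2, the lowest of the 10 genes, had 30 to 50 counts per library with p21, 31 to 40 with p16 and 42 to 74 with the empty vector, so counting error limits it. Its levels were 0.674, 0.681 and 0.950 CPM with p21, 0.586, 0.636 and 0.713 CPM with p16 and 1.12, 1.27 and 0.897 CPM with the empty vector. All p16 libraries lay below the empty vector libraries, and p21 replicate 3 lay inside their range. The log2 fold change was -0.52 ± 0.24 with p21 (edgeR adjusted p = 0.109), with a 95% interval of -1.04 to 0.0090. With p16 it was -0.77 ± 0.24, with an interval of -1.30 to -0.24 (edgeR adjusted p = 0.0630). Besides the block, it passed with libraries scaled by totals alone (edgeR adjusted p = 0.0497). The p21 difference was -0.82 and passed without the replicate 3 libraries (edgeR adjusted p = 0.0480), and within replicate 3 it was 0.082 as a log2 ratio of CPM.

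Of the DP partners, Tfdp1, the main dimer partner in most cells, stood at 166, 160.2 and 166 CPM with p21, at 179, 169 and 174 CPM with p16 and at 187, 188 and 181 CPM with the empty vector. All p21 libraries were below all p16 libraries, and all p16 libraries were below all empty vector libraries. The fall with p21 was small, -0.17 ± 0.034 on the log2 scale (edgeR adjusted p = 0.00143). With p16 it was -0.090 ± 0.034, which did not pass (edgeR adjusted p = 0.110) but passed with libraries scaled by totals alone (0.0320). Tfdp2, the second partner, ranged from 22.7 to 23.6 CPM with p21, from 23.5 to 25.8 CPM with p16 and from 21.7 to 24.5 CPM with the empty vector. These ranges overlap between each inhibitor and the empty vector, and Tfdp2 did not pass in any comparison. Its log2 fold change with p21 was 0.027, with a 95% interval of -0.10 to 0.15, and its sign turned with the scaling (-0.023 by library totals alone).

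**Figure D2:**
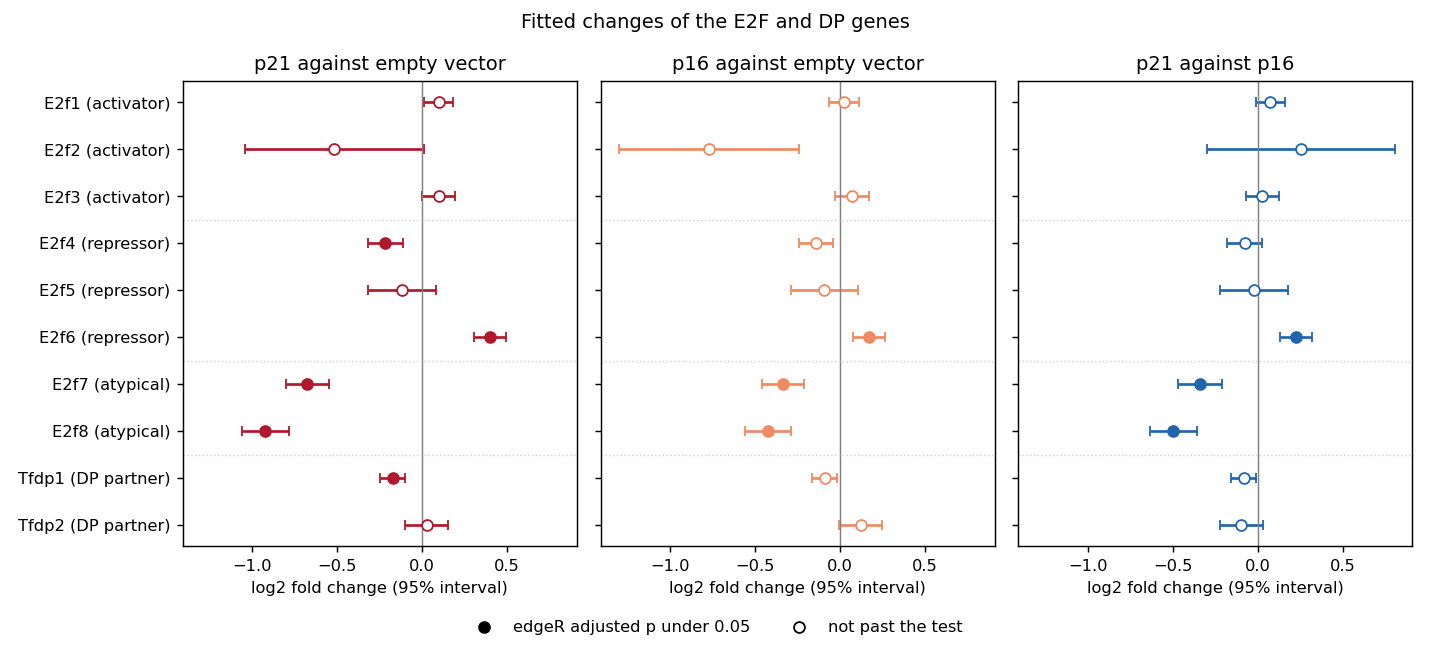
Fitted log2 fold changes (horizontal axes) of the 10 genes (rows) in the comparisons of p21 with the empty vector, of p16 with the empty vector and of p21 with p16, with 95% intervals and filled points where the edgeR adjusted p was under 0.05. E2f7 and E2f8 lie left of 0 and E2f6 right of 0 in all 3 panels, the intervals of E2f1 and E2f3 are narrow and near 0, and that of E2f2 is wide.

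Counted together with p21, 4 of the 10 genes fell and 1 rose, where 20.1% of all 14223 genes tested fell and 19.8% rose, 39.9% in all. With libraries scaled by totals alone, 26.3% of all genes fell and 15.3% rose, and the members' count was the same. The share of 50% is near this background, so the count itself does not set the family apart. By the libraries alone, 4 genes were lower and 2 higher with p21 without overlap, where 25% and 24.2% of all genes were, 49.1% in all. With p16, 2 fell and 1 rose, where 5.56% of all genes fell and 5.8% rose, 11.4% in all. With the replicate number as a block 4 fell and 1 rose with p16, E2f2 and E2f4 being added, where 10.1% of all genes fell and 11.3% rose under that block, 21.4% in all. With libraries scaled by totals alone, 5 fell and 1 rose with p16, where 8.68% of all genes fell and 4.34% rose. Without overlap, 5 were lower and 1 higher with p16, where 16.6% and 16.1% of all genes were, 32.7% in all. The median log2 fold change of the 10 genes was -0.14 with p21 and -0.090 with p16, beside 0.0011 and 0.0017 over all genes. These comparisons share the empty vector libraries, so they are not independent.

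The direct comparison asks where the inhibitors differ, and here p21 against p16 gave 1 gene higher and 2 lower, where 6.15% of all genes were higher and 6.91% lower, 13.1% in all (5.17% and 8.82% by library totals alone). Without overlap, 2 were higher and 3 lower, where 14.9% and 16.3% of all genes were, 31.2% in all. E2f8 was lower with p21 than with p16 by -0.50 ± 0.064 on the log2 scale (edgeR adjusted p = 3.427e-04) and E2f7 by -0.34 ± 0.058 (edgeR adjusted p = 0.00249). E2f6 was higher with p21 by 0.23 ± 0.044 (edgeR adjusted p = 0.00501). The other 7 genes did not pass. Tfdp1 came nearest, at -0.083 ± 0.034 (edgeR adjusted p = 0.128), and for E2f1 the difference was 0.074 with a 95% interval of -0.013 to 0.16. The transcript levels reached were 1605 CPM for Cdkn1a with p21 and 1731 CPM for Cdkn2a with p16. These were 4.46-fold and 45.7-fold over empty vector levels that themselves differed, at 360.2 and 37.9 CPM. Whether the inhibitors acted at matched doses was not tested, so dose and kind of inhibitor cannot be told apart.

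Levels of different genes can be set side by side only per length. In CPM per kb of annotated exon, a level rather than a difference, Tfdp1 was highest with 44.8 ± 0.964 in the p21 libraries, 47.4 ± 1.34 in the p16 libraries and 50.5 ± 1.07 in the empty vector libraries (SD, n = 3 each). E2f4 followed with 25.5 ± 1.23, 26.9 ± 0.993 and 29.7 ± 0.609 in the same groups, and E2f1 came next with 15.2 ± 0.369, 14.5 ± 0.0800 and 14.2 ± 0.394. The order then depended on the group. E2f6 was above E2f3 with p21 (11.4 ± 0.372 and 9.46 ± 0.354) and with p16 (9.76 ± 0.126 and 9.27 ± 0.290), while with the empty vector they overlapped (8.67 ± 0.327 and 8.84 ± 0.260). E2f5 stood at 5.58 ± 0.559 with p21, 5.66 ± 0.0273 with p16 and 6.04 ± 0.614 with the empty vector. E2f8 and E2f7 overlapped with p21 (2.33 ± 0.157 and 2.43 ± 0.159) and with p16 (3.28 ± 0.171 and 3.06 ± 0.174), whereas E2f8 was the higher with the empty vector (4.40 ± 0.0819 and 3.86 ± 0.116). Tfdp2 (1.64 ± 0.0336 with p21, 1.76 ± 0.0820 with p16 and 1.61 ± 0.117 with the empty vector) and E2f2 (0.157 ± 0.0322, 0.132 ± 0.0131 and 0.224 ± 0.0383) were lowest in every group. Exon lengths were 14029 bases for Tfdp2 and 9009 for E2f7, against 1782 for E2f5, and count every annotated exon, so unused exons lower the level of the long genes.

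Summed by class, the activators held 24.8 ± 0.554 CPM per kb with p21, 23.9 ± 0.292 with p16 and 23.3 ± 0.602 with the empty vector. The repressors held 42.5 ± 1.59, 42.4 ± 0.887 and 44.4 ± 0.121 in the same groups. The atypical pair held 4.75 ± 0.187 with p21, 6.34 ± 0.330 with p16 and 8.26 ± 0.185 with the empty vector. Of these sums, that of the atypical pair alone did not overlap between any of the 3 groups. The DP partners held 46.4 ± 0.986 with p21, 49.2 ± 1.38 with p16 and 52.1 ± 1.12 with the empty vector, also without overlap. The ratio of the atypical pair to the activators was 0.192, 0.202 and 0.180 in the p21 libraries. It was 0.274, 0.270 and 0.253 in the p16 libraries and 0.352, 0.359 and 0.354 in the empty vector libraries, with no overlap between groups. Of the summed E2F level the atypical pair made up 6.59% ± 0.162 with p21, 8.74% ± 0.324 with p16 and 10.9% ± 0.133 with the empty vector, and the repressors 59.0% ± 1.09, 58.4% ± 0.281 and 58.4% ± 0.599. These sums carry no test. Within the repressor sum the rise of E2f6 and the fall of E2f4 offset each other in part.

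**Figure D3:**
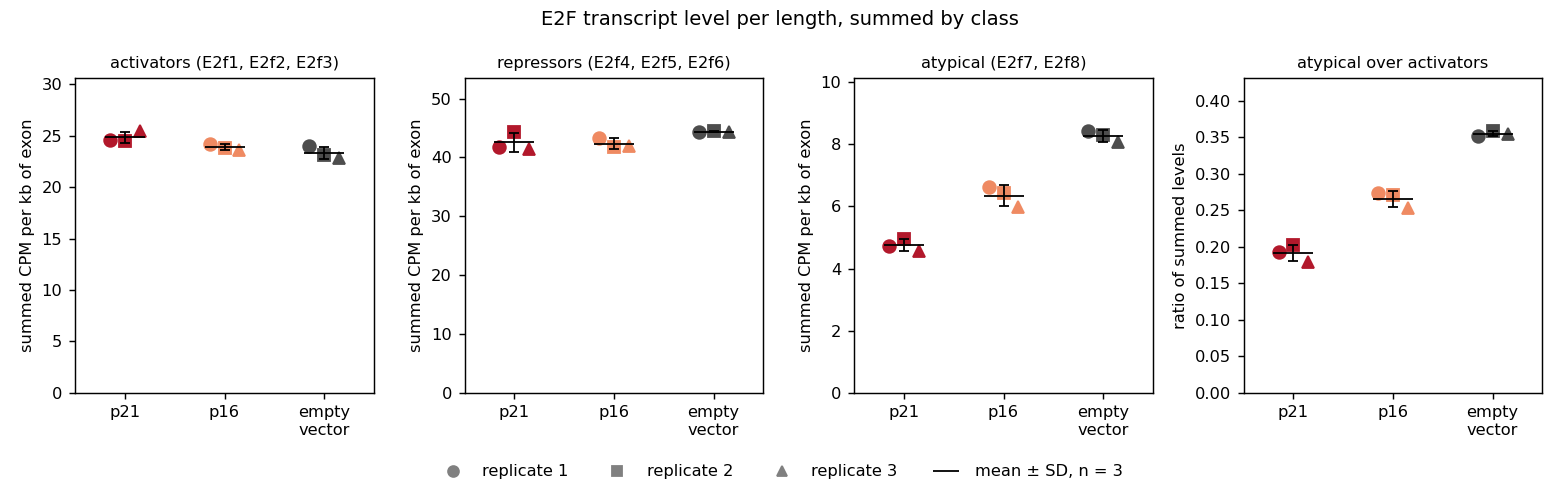
Summed level per length by E2F class (CPM per kb of exon, from 0) and the ratio of the atypical to the activator sum in each of the 3 p21, 3 p16 and 3 empty vector libraries, with bars for mean ± SD (n = 3). The activator and repressor sums stay nearly level while the atypical sum and the ratio are lowest with p21, intermediate with p16 and highest with the empty vector.

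The genes that E2F factors are known to control were read from lists. Of 34 genes of G1/S transition and DNA replication, 32 fell and 1 rose with p21, where 20.1% of all genes fell and 19.8% rose. With p16, 27 fell and 1 rose, where 5.56% of all genes fell and 5.8% rose. The median log2 fold changes of the list were -0.42 and -0.27, beside 0.0011 and 0.0017 over all genes. In p21 against p16, 15 of the list were lower and 1 was higher, where 6.91% and 6.15% of all genes were. The median of the list was -0.16, beside -0.0019 over all genes. Ccna2, which encodes cyclin A2, averaged 48.9 ± 2.02 CPM with p21, 77.0 ± 0.314 with p16 and 107 ± 3.93 with the empty vector. Uhrf1, which guides maintenance methylation of DNA, averaged 76.2 ± 1.60, 93.4 ± 6.09 and 128 ± 4.97 CPM in the same groups. The mitotic kinase gene Cdk1 changed by -0.72 ± 0.049 with p21 and -0.19 ± 0.049 with p16 on the log2 scale, and the replicative helicase gene Mcm5 by -0.54 ± 0.041 and -0.38 ± 0.041. The gene that rose was Ccne1, which encodes cyclin E1, a partner of CDK2 at the start of S phase. It averaged 80.6 ± 3.65 CPM with p21, 71.0 ± 2.19 with p16 and 59.2 ± 3.28 with the empty vector, and the log2 fold change was 0.45 ± 0.052 with p21 (edgeR adjusted p = 3.154e-05) and 0.26 ± 0.052 with p16 (edgeR adjusted p = 0.00767). Most of these targets thus fell while the level of E2f1 and E2f3 did not pass the test.

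The DREAM complex represses cell cycle genes in resting cells through E2f4. Its list held 10 genes, with the pocket proteins and the mitotic factor gene Foxm1 counted in. Of these, 6 fell and 0 rose with p21, where 20.1% of all genes fell and 19.8% rose. With p16, 3 fell and 0 rose, where 5.56% of all genes fell and 5.8% rose. The 3 that fell with p16 were Rbl1, Mybl2 and Foxm1, and the other 7 did not pass with p16. The gene of the pocket protein p107, Rbl1, is itself an E2F target and fell to 16.7 ± 0.760 CPM with p21 and 20.0 ± 0.471 with p16, against 23.5 ± 0.515 with the empty vector. Those of RB itself and p130, Rb1 and Rbl2, did not pass. Mybl2, which encodes B-Myb of the activating form of the complex, changed by -0.91 ± 0.048 with p21 and -0.55 ± 0.047 with p16, and the mitotic factor gene Foxm1 by -0.89 ± 0.061 and -0.31 ± 0.060. Lin54, the subunit that binds DNA, changed by -0.56 ± 0.072 with p21, while with p16 it stood at -0.12 ± 0.071 and did not pass (edgeR adjusted p = 0.292).

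The list upstream of RB, with 11 genes of D cyclins, their kinases, Cdk2 and the CDK inhibitors that were not delivered, was split. With p21 5 rose and 5 fell, where 19.8% of all genes rose and 20.1% fell. With p16 5 rose and 4 fell, where 5.8% of all genes rose and 5.56% fell. Ccnd2, which encodes cyclin D2, changed by 0.77 ± 0.038 with p21 and 0.49 ± 0.038 with p16. Cdk2 changed by -0.47 ± 0.044 and -0.17 ± 0.044, and the inhibitor genes Cdkn2d and Cdkn2c by -0.68 ± 0.075 and -0.87 ± 0.10 with p21 and by -0.27 ± 0.074 and -0.52 ± 0.10 with p16. Of 4 genes that control E2F proteins through ubiquitin ligases or the anaphase-promoting complex, all 4 fell with p21 and 2 with p16. Of all genes 20.1% fell with p21 and 5.56% with p16. Ccnf, which encodes cyclin F, the ligase subunit that targets E2F proteins, averaged 28.3 ± 1.39 CPM with p21, 45.8 ± 0.611 with p16 and 53.7 ± 2.55 with the empty vector. Fbxo5, an inhibitor of the anaphase-promoting complex, changed by -0.87 ± 0.072 with p21, its activator gene Fzr1 by -0.40 ± 0.049 and the ligase gene Skp2 by -0.30 ± 0.059.

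Of 10 Polycomb partners of E2F6, 6 fell and 2 rose with p21, where 20.1% of all genes fell and 19.8% rose. With p16, 2 fell and 1 rose, where 5.56% of all genes fell and 5.8% rose. Most partners that passed thus moved opposite to E2f6 itself. L3mbtl2, a chromatin reader of this complex, averaged 17.4 ± 0.613 CPM with p21, 21.1 ± 0.191 with p16 and 24.3 ± 0.704 with the empty vector. With p21 the heterochromatin protein gene Cbx3 changed by -0.49 ± 0.060 and the scaffold gene Wdr5 by -0.24 ± 0.043. Yaf2, a subunit that binds the RING proteins, rose by 0.21 ± 0.039 with p21 and 0.17 ± 0.039 with p16, and Max, the dimer partner of MGA, rose by 0.19 ± 0.051 with p21. Of 5 germline genes that E2F6 silences in mouse cells, Slc25a31, Tuba3a and Tuba3b had at most 2 counts in any library and were not tested. Stag3 (1.35 ± 0.220 CPM with p21, 1.12 ± 0.335 with p16 and 1.01 ± 0.156 with the empty vector) and Smc1b (under 0.2 CPM on average in each group) did not pass.

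Of 8 apoptosis genes known as E2F1 targets, 7 could be tested and Trp73, with at most 8 counts in a library, could not. With p21 1 rose and 2 fell, and with p16 0 rose and 1 fell. The median log2 fold changes of the tested genes were -0.061 and -0.063, beside 0.0011 and 0.0017 over all genes. Of all genes 39.9% passed with p21 and 11.4% with p16, so these counts are near the background. Pmaip1, which encodes the BH3-only protein NOXA, averaged 118 ± 4.66 CPM with p21, 106 ± 8.27 with p16 and 96.3 ± 2.48 with the empty vector, and only the p21 difference passed (0.29 ± 0.053). Bcl2l11, which encodes BIM, stood at -0.20 with p21 and did not pass (edgeR adjusted p = 0.0832).

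**Figure D4:**
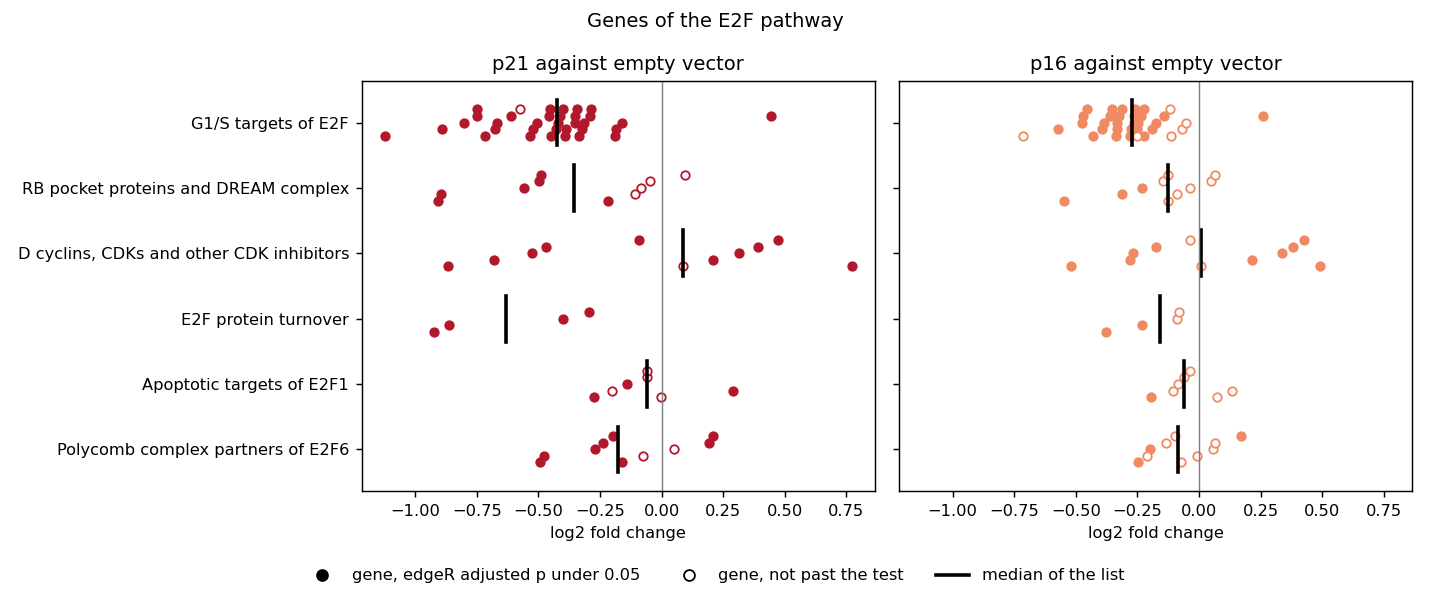
Log2 fold changes (horizontal axes) of single genes in 6 lists of the E2F pathway for p21 and for p16 against the empty vector, with filled points where the edgeR adjusted p was under 0.05 and bars for the list medians. Nearly all G1/S targets lie left of 0 in both panels with Ccne1 alone past the test on the right, and the list of D cyclins, CDKs and inhibitors is spread on both sides.

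The genes closest in pattern were named by the root mean square difference in log2 CPM over the 9 libraries after each gene's own mean was taken off, among 10897 genes. For E2f7 they included Exo1 (0.033) and Chtf18 (0.042), a nuclease and a clamp loader subunit of DNA repair and replication, where the root mean square change of E2f7 itself was 0.28. For E2f8, with 0.38 of its own, they were Foxm1 (0.066), the condensin gene Ncapg2 (0.068) and the nuclear lamina gene Tmpo (0.070). For E2f1 they were Setd3, Gsk3b and Gosr2 (0.016 to 0.019), and for E2f3 Anapc16, Uso1 and Usp47 (0.023 to 0.026). E2f1 and E2f3 varied by only 0.048 and 0.056 themselves, so these values say little. The libraries share groups and replicate numbers, so such likeness is a description of these samples.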

How the data were processed

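RNA-seq counts of 9 libraries were analysed. The authors deposited raw counts by gene symbol, made with alignment to mm10 by TopHat2 2.0.14 and Bowtie2 2.2.6 and counting by featureCounts 1.4.6 (Subread), per the submitters' processing notes; the annotation and strand setting are not given in the sources used here. Of 24062 symbols, 22750 matched GENCODE M21 (GRCm38), the source of coordinates and exon lengths.

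Genes were kept by filterByExpr (minimum count 10, total 15), which left 14223, and scaled by TMM. All libraries entered 1 edgeR 4.0.16 quasi-likelihood fit by group (R 4.3.3, 6 residual degrees of freedom, common dispersion 0.00533), with two-sided F tests and Benjamini-Hochberg adjustment over all genes at 0.05. SE is the absolute log2 fold change over the square root of F, and 95% intervals use the fit's total degrees of freedom. The fit was tested on simulated data. Libraries of a group differed beyond counting error (chi-squared per degree of freedom 5.26 to 16.9), and each was counted as its own sample. This spread does not show that they came from separate cultures.

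After removal of group means, libraries with the same replicate number correlated at 0.126 to 0.361 across genes and others at -0.246 to 0.106, so the numbers pair the samples, although the labels do not explain them. The main fit has no block. Alternatives were RLE factors, library totals, no filter, DESeq2 1.42.0, limma-voom (limma 3.58.1), only the 2 groups compared, the replicate block, delivered genes left out, replicates 1 and 2, and each library left out.

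Members, lists and the naming rule were chosen with earlier results of these data known. The rule took all 10 members, the 3 genes closest in pattern to each of E2f1, E2f3, E2f7 and E2f8 (mean log2 CPM of at least 1), and up to 4 genes of each list with the smallest p in p21 against the empty vector, plus genes called against most of their list. Rb1, Rbl2, Slc25a31, Tuba3a, Tuba3b and Trp73 were named in addition. A few genes the rule takes are not reported here. With p21, 3 of 10 fibroblast markers were higher and 2 lower, 2 of 3 epithelial markers tested were higher, and 0 of 5 endothelial markers passed (edgeR). Of all genes 19.8% were higher and 20.1% lower with p21. Figures used Python 3.11.15 and matplotlib 3.10.9.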

Additional observations from a re-analysis of the deposited data

How the results depend on the processing

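With p16, 3 of the 10 genes passed as reported, 6 (1 higher, 5 lower) passed with libraries scaled by totals alone, where 617 of all genes were higher and 1235 lower against 825 and 791 as reported, and 5 with the replicate block. Without 1 library at a time the count was 2 to 4 with p16, 5 or 6 with p21 and 3 between the inhibitors. The replicate block changed the call of no member other than E2f2 and E2f4 with p16. Signs turned only for genes that did not pass. These were Tfdp2 with p21 (0.027) by library totals (-0.023) and without empty vector replicate 2 (-0.0038) or 3 (-0.0033), within a range without 1 library of -0.0038 to 0.090, E2f1 with p16 (0.022) by library totals (-0.0088), E2f3 in p21 against p16 (0.028) with replicates 1 and 2 only (-0.021), and E2f5 in p21 against p16 (-0.024) without p21 replicate 1 (0.044), within a range of -0.099 to 0.044. E2f6, E2f7 and E2f8 kept their direction in all 3 comparisons under all 18 alternatives, and E2f7 and E2f8 their calls. E2f4 with p16 also passed with only these groups fitted (edgeR adjusted p = 0.0381), by DESeq2 (0.0349), by library totals alone (edgeR adjusted p = 0.0378) and without p21 replicate 2 (edgeR adjusted p = 0.0459). Over all genes, 1616 passed with p16, but 3044 with the replicate block and 759 to 1070 without p16 replicate 1, 2 or 3 or empty vector replicate 1 or 2. In p21 against p16, 1858 passed, but 3214 with the block and 1074 to 1151 without p21 replicate 1 or p16 replicate 1 or 2. The G1/S target counts stayed within 1.5 times of those reported. Depth limits E2f2 most.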
